A study of Rattus norvegicus with 6 samples.

Results

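The 10 genes described here encode the induced brakes of the ERK kinase pathway: the phosphatase genes Dusp4, Dusp5 and Dusp6, the Sprouty genes Spry1, Spry2 and Spry4, the Sprouty-related genes Spred1, Spred2 and Spred3, and Il17rd, also known as Sef. They were chosen by gene name, and each matched 1 of the 32623 rows of an RNA sequencing table from H9C2 cells, a rat myoblast line derived from embryonic heart. The cells grew in medium with 1 g/L glucose and fell into 3 groups of 2 libraries. Cells of siFGFR1+HG were given an siRNA that targets Fgfr1, which encodes an FGF receptor, followed by 33 mM glucose for 8 h. Cells of HG had the glucose alone, and cells of Ctrl were untreated. All samples come from this 1 line. No group carried a control siRNA or an osmotic control according to the labels, so siRNA sequence and transfection, and glucose and osmolarity, cannot be told apart. The labels do not state separate cultures within a group, and p-values therefore measure only the spread between these libraries, which may be technical.

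When an FGF receptor binds its ligand, adaptor proteins load Ras with GTP, and Ras starts a kinase relay that passes through MEK to ERK. Active ERK induces transcription factors and also its own inhibitors. The DUSP phosphatases remove phosphates from ERK itself, Sprouty proteins act on the receptor and Ras steps, SPRED proteins bring the Ras inhibitor neurofibromin to the membrane, and Il17rd acts on the FGF receptor and on release of ERK from MEK. Because ERK output induces many of these genes, their transcripts are widely used as a readout of the pathway, alongside targets such as Etv4, Etv5 and Ccnd1.

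Total counts lay between 46960084 and 75021470 per library. The siRNA target Fgfr1 had 4 and 0 counts in siFGFR1+HG, 0 and 0 in HG, and 0 and 4 in Ctrl, so the knockdown could not be checked. A count of 0 in the HG libraries allows up to 0.0519 and 0.0572 CPM (3 counts per library, counting error only). How many counts a fragment gave is unknown, and the limit would be higher if it were more than 1. Of 7 myoblast markers 5 averaged at least 1 FPKM, among them Myod1 (62.9 to 67.4 FPKM), while Myf5 was at 0 in every library. Of 7 cardiomyocyte markers 3 did so (Tnnt2, Nkx2-5 and Gata4), and Myh6 stayed at or under 0.0899 FPKM. Ptprc, Cdh5 and Epcam, which define leukocytes, endothelium and epithelium, were at 0 in all libraries. Summed myoblast markers were 215 to 217 FPKM in siFGFR1+HG, 219.9 to 220.3 in HG and 246 to 249 in Ctrl. Cdh15 and Myod1 made up most of that sum, and members differed in direction. Myh3 had 4.35 and 4.64 FPKM in siFGFR1+HG, against 8.44 and 7.73 in HG, and Myog had 16.1 and 16.9 in siFGFR1+HG, against 21.9 and 23.4 in HG. Cdh15 had 129 and 126 FPKM in siFGFR1+HG, against 116 and 118 in HG. Summed cardiomyocyte markers were 85.8 to 86.5 FPKM in siFGFR1+HG, 136 in both HG libraries and 132 to 138 in Ctrl. That gap lay in Tnnt2 (75.7 in both siFGFR1+HG libraries, against 125 and 127 FPKM in HG), while Nkx2-5 and Gata4 overlapped or lay slightly above HG in siFGFR1+HG. Of 5 fibroblast markers 2 averaged at least 1 FPKM (Col1a1 and Thy1), and the list summed to 4227 to 4283 FPKM in siFGFR1+HG, 3248 to 3294 in HG and 3382 to 3581 in Ctrl. Col1a1 made up most of that sum, with means of 4100 FPKM in siFGFR1+HG, 3127 in HG and 3331 in Ctrl. None of the 5 macrophage markers averaged 1 FPKM, with sums of 0.457 to 0.650 FPKM in siFGFR1+HG, 0.879 to 1.69 in HG and 1.38 to 1.46 in Ctrl. None of the 3 endothelial markers found did either, with sums of 0.0284 to 0.0630 FPKM in siFGFR1+HG, 0.0636 to 0.206 in HG and 0.198 to 0.199 in Ctrl. Of 4 epithelial markers only Krt8 did, and the list summed to 18.3 to 19.6 FPKM in siFGFR1+HG, 19.6 to 21.3 in HG and 25.7 to 26.1 in Ctrl. The part of these shifts in the results was not tested.

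The 10 genes did not share 1 order of groups. For siFGFR1+HG against HG, only Spred1 of the members tested had a log2 fold change above 0 (0.35), and it was not called. Dusp6 was lowest in siFGFR1+HG, intermediate in HG and highest in Ctrl, with no overlap between groups. The groups of Spred2 stood in the same order without overlap, and those of Spry2 and Spry4 were also separate, in other orders. Spry4 was called lower in siFGFR1+HG than in HG, Spred2 was called lower in siFGFR1+HG than in Ctrl, and the other members tested passed in no comparison. For siFGFR1+HG against HG, Spry4 and Spred2 had nearly equal log2 fold changes (-0.28 for each), with a larger SE for Spred2 (0.11, against 0.06). Genes were tested on counts with edgeR when at least 2 libraries reached 1 FPKM (a read level scaled to gene length and library size), which 8 of the 10 members did. A call means a p under 0.05 after Benjamini-Hochberg adjustment over 12229 genes. For siFGFR1+HG against HG, 2 of the 8 fell, 0 rose and 6 were not called (median log2 fold change -0.16), where 29.9% of all genes were called, 14.1% higher and 15.9% lower (median -0.01). HG against Ctrl gave 1 lower, 0 higher and 7 not called (median -0.01), where 13.7% of all genes were called, 5.81% higher and 7.85% lower (median 0.00). In siFGFR1+HG against Ctrl 2 fell, 0 rose and 6 were not called (median -0.11), where 22.3% of all genes were called, 9.82% higher and 12.4% lower (median 0.01). These shares are close to the background, so the counts mark single genes and not the set. The comparisons share libraries, HG standing in the first and second. The libraries of siFGFR1+HG lay above both HG libraries in 1 member, below them in 5 and overlapped them in 2, against 30.4% of all genes above and 36.1% below. Those of HG lay above Ctrl in 4, below in 3 and overlapped in 1 (32.9% and 27.3% of all genes above and below), and those of siFGFR1+HG lay above Ctrl in 1, below in 3 and overlapped in 4 (32.9% and 30.9%).

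**Figure D1:**
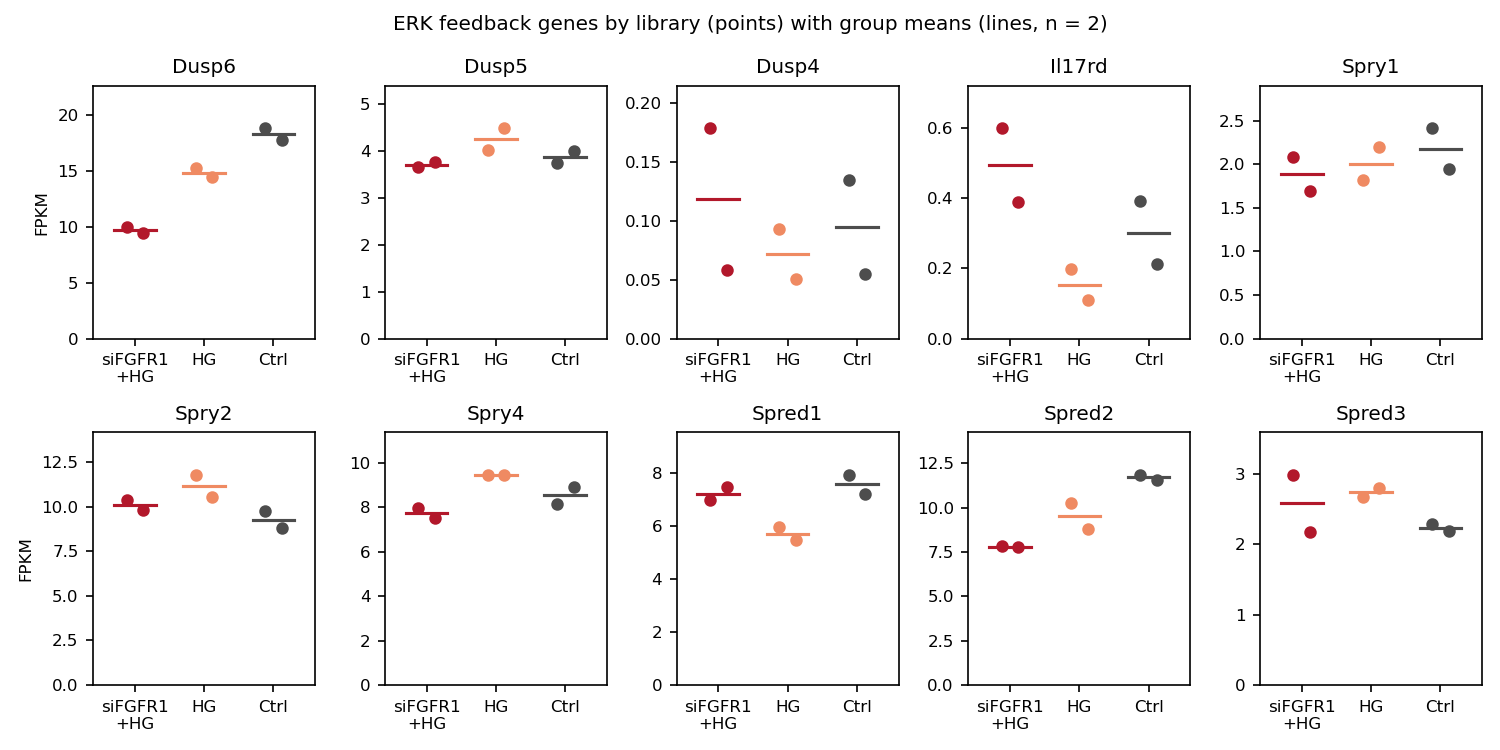
FPKM (y axis, from 0, a scale of its own in each panel) of the 10 genes in the 2 libraries of siFGFR1+HG, HG and Ctrl, with group means as lines. Dusp6 steps from group to group without overlap (9.43 to 10.02, 14.5 to 15.2 and 17.8 to 18.8 FPKM), and Spred2 does so in the same order. Spry1 overlaps in all 3 groups, and Dusp4 and Il17rd stay under 1 FPKM.

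By level per gene length, the order of the members also differed between groups. In siFGFR1+HG Spry2 (10.1 ± 0.376 FPKM, mean ± SD, n = 2 throughout) and Dusp6 (9.73 ± 0.424) led with overlapping libraries, followed by Spred2 and Spry4, which overlapped each other at 7.79 ± 0.0370 and 7.73 ± 0.312. In HG Dusp6 led with 14.9 ± 0.547 FPKM, above Spry2 at 11.2 ± 0.890, and Spred2 and Spry4 again overlapped. In Ctrl Dusp6, at 18.3 ± 0.727 FPKM, stood well above Spred2 (11.7 ± 0.198), and Spry2 (9.27 ± 0.660) and Spry4 (8.53 ± 0.530) overlapped. Spred1, Dusp5, Spred3 and Spry1 followed in that order in every group, with overlapping neighbours only for Spred3 and Spry1 in Ctrl, and Il17rd and Dusp4 came last. Over the 6 libraries Dusp6 averaged 14.3 FPKM, above 56.9% of the genes tested, and Spry1, the lowest tested member, averaged 2.03 FPKM, above 11.1%.

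Dusp6, whose product is a cytoplasmic phosphatase selective for ERK, lies on chromosome 7 of the deposited table (41475163 to 41479392, plus strand). It had 10.02 and 9.43 FPKM in siFGFR1+HG, against 15.2 and 14.5 FPKM in HG, and 18.8 and 17.8 FPKM in Ctrl. Relative to HG, Dusp6 in siFGFR1+HG was lower 1.51-fold (log2 -0.60 ± 0.06 SE, with n = 2 in each group, 95% interval -0.74 to -0.45), with an adjusted p = 0.00112 by edgeR's quasi-likelihood test, a call that held in all 13 alternatives tried. It was 1.25-fold lower in HG than in Ctrl (log2 -0.32 ± 0.06, adjusted p = 0.0201, edgeR). That call was lost without HG 1 (adjusted p = 0.0544), HG 2 (0.0988), Ctrl 1 (0.118) or Ctrl 2 (0.0583). In siFGFR1+HG against Ctrl it was 1.89-fold lower (log2 -0.92 ± 0.06, adjusted p = 0.00034, edgeR), again in all 13 alternatives. In bulk RNA, fewer cells expressing a gene and less RNA per cell cannot be told apart.

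Dusp5, a nuclear ERK phosphatase, had 3.65 and 3.76 FPKM in siFGFR1+HG, 4.01 and 4.49 FPKM in HG, and 3.74 and 3.99 FPKM in Ctrl. Its siFGFR1+HG libraries lay below both HG libraries, but the gene did not pass (log2 -0.18 ± 0.12, 95% interval -0.48 to 0.12), nor did it in HG against Ctrl (0.12 ± 0.12) or siFGFR1+HG against Ctrl (-0.07 ± 0.12). The ratio of Dusp6 to Dusp5 in FPKM was 2.75 and 2.50 in siFGFR1+HG, 3.80 and 3.22 in HG, and 5.04 and 4.46 in Ctrl. These ratios are a description, with no test. Dusp4, whose product is a nuclear phosphatase of ERK and other MAP kinases, was under the level filter, with 40 and 12 counts in siFGFR1+HG, 23 and 12 in HG, and 31 and 17 in Ctrl. These counts correspond to 0.0509 to 0.179 FPKM, and the groups overlapped.

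Promoter windows, from 250 bases before to 50 after the gene start, were found in RefSeq (build GRCr8) for 9 of the 10 members (not Dusp4), with 2 windows for Spry2. Those of the 2 genes called lower in siFGFR1+HG than in HG are shown with that of Dusp5, another phosphatase gene, which did not pass. Not passing does not set Dusp5 apart from the called genes. The interval of its log2 fold change (-0.48 to 0.12) held that of Spry4 (-0.42 to -0.13). It also overlapped that of Dusp6 (-0.74 to -0.45). Whether Dusp5 differed from either gene in its change was not tested. The windows are Dusp6 at chr7:35979354-35979653 (plus strand), Spry4 at chr18:30702497-30702796 (minus strand) and Dusp5 at chr1:262543524-262543823 (plus strand), read 5′ to 3′, with capitals for the ETS letters CCGGAA or their complement and for CArG boxes, the motif of serum response factor.
Dusp6: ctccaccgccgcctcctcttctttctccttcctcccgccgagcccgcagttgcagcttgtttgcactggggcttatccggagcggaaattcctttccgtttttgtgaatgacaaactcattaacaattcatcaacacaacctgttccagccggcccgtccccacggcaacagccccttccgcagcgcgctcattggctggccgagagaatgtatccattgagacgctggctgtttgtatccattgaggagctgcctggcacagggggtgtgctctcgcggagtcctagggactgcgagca
Spry4: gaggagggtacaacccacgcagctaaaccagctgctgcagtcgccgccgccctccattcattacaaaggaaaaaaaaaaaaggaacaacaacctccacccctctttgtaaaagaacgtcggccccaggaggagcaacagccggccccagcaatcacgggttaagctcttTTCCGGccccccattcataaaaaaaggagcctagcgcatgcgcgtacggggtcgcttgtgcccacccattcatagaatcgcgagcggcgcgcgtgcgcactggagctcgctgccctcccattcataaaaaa
Dusp5: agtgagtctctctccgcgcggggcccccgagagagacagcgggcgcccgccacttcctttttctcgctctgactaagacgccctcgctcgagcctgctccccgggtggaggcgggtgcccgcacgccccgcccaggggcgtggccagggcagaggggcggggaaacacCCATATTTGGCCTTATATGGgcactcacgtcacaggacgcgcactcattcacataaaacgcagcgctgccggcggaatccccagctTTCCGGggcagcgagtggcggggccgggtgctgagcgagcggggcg
The ETS letters occurred in the Spry4 and Dusp5 windows and in 1 of the Spry2 windows, 3 of 10 member windows, against 15.0% of 33469 windows genome-wide. Dusp5 held 2 adjoining CArG boxes, starting 82 and 72 bases before the gene start, while 1.64% of all windows held at least 1. The CRE letters TGACGTCA (1.83% of all windows), the AP-1 letters TGANTCA (7.33%) and the TATA letters TATAAA (14.2%) were in 0 of the 10. The Sp1 letters GGGCGG were in 8 of 10 member windows and in 33.1% of all. All 6 motifs were searched on both strands, the marked matches do not overlap, and the Dusp6 window held none of the 6. The member windows had 56.0% to 76.3% GC, against a median of 51.7%. These matches describe letters only. The deposited table puts Spry4 on the plus strand in its own coordinates, which are not those of GRCr8.

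Among the Sprouty genes, Spry4 had 7.95 and 7.51 FPKM in siFGFR1+HG, 9.43 and 9.47 FPKM in HG, and 8.16 and 8.91 FPKM in Ctrl. It fell 1.21-fold in siFGFR1+HG relative to HG (log2 -0.28 ± 0.06, 95% interval -0.42 to -0.13, adjusted p = 0.0167, edgeR). The call was lost without siFGFR1+HG 2 (adjusted p = 0.0767), HG 1 (0.0657) or HG 2 (0.0688). Spry4 did not pass in HG against Ctrl (0.13 ± 0.06) or in siFGFR1+HG against Ctrl (-0.15 ± 0.06). The HG libraries were thus the highest of the 6, with siFGFR1+HG below both other groups.

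By mean FPKM Spry2 was the most abundant Sprouty gene in all 3 groups, although its libraries and those of Spry4 overlapped in Ctrl. Spry2 had 10.4 and 9.83 FPKM in siFGFR1+HG, 11.8 and 10.5 FPKM in HG, and 9.74 and 8.81 FPKM in Ctrl. No groups of Spry2 overlapped each other, yet it was not called (log2 -0.13 ± 0.10 for siFGFR1+HG against HG, 95% interval -0.38 to 0.12, and 0.25 ± 0.10 in HG against Ctrl). Non-overlap was common, at 66.5% of all genes tested for siFGFR1+HG against HG, 60.1% in HG against Ctrl and 63.8% in siFGFR1+HG against Ctrl. The FPKM of Dusp6 over that of Spry2 was 0.967 and 0.958 in siFGFR1+HG, 1.29 and 1.37 in HG, and 1.93 and 2.02 in Ctrl, so this pair of ERK feedback genes kept no fixed proportion. Spry1 had 2.09 and 1.70 FPKM in siFGFR1+HG, 1.82 and 2.20 in HG, and 2.42 and 1.94 in Ctrl. Its groups overlapped in every comparison, with a 95% interval of -0.56 to 0.42 for siFGFR1+HG against HG.

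**Figure D2:**
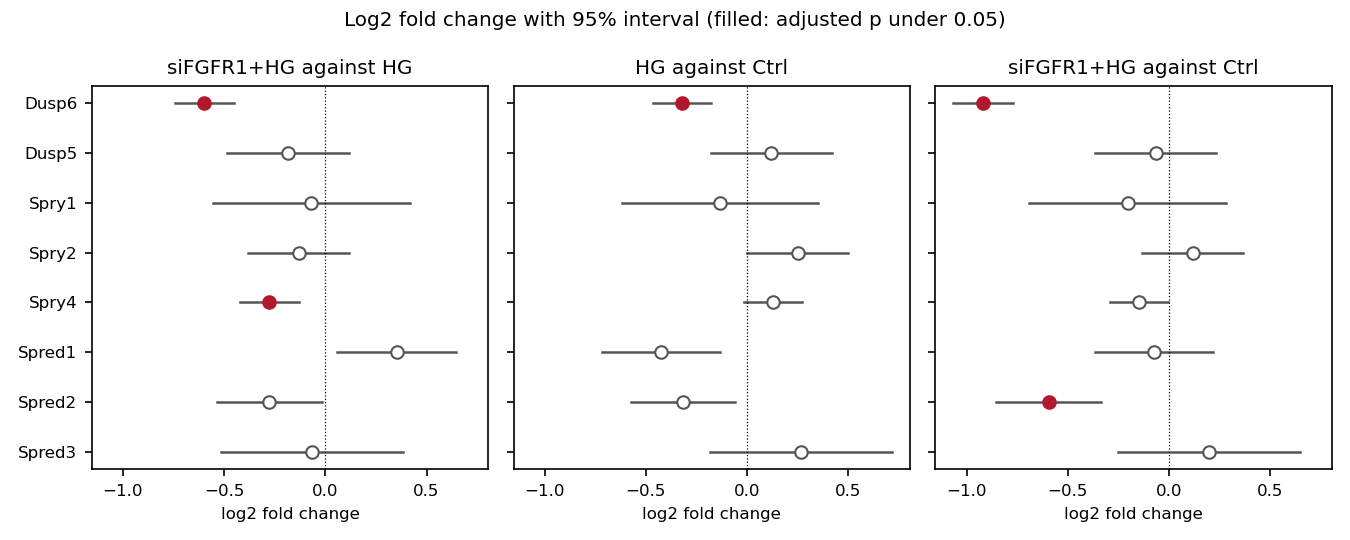
Log2 fold change (x axis) with its 95% interval for the 8 members tested, in 3 comparisons, from edgeR over 6 libraries. Filled points passed an adjusted p of 0.05, namely Dusp6 in all 3, Spry4 in siFGFR1+HG against HG and Spred2 in siFGFR1+HG against Ctrl.

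The SPRED genes did not share 1 order of groups in their levels, and only Spred2 was called, in 1 comparison. Spred2 had 7.81 and 7.76 FPKM in siFGFR1+HG, 10.3 and 8.79 FPKM in HG, and 11.9 and 11.6 FPKM in Ctrl, the same order of groups as Dusp6. It was 1.51-fold lower in siFGFR1+HG than in Ctrl (log2 -0.59 ± 0.11, 95% interval -0.85 to -0.34, adjusted p = 0.0111, edgeR), a call lost without siFGFR1+HG 1 (adjusted p = 0.0509), Ctrl 1 (0.0658) or Ctrl 2 (0.0520). The steps between did not pass, at -0.28 ± 0.11 for siFGFR1+HG against HG and -0.32 ± 0.11 for HG against Ctrl, where DESeq2 called it (adjusted p = 0.0385).

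Spred1, which shares with Spred2 the recruitment of neurofibromin, was instead lowest in HG, with 6.98 and 7.47 FPKM in siFGFR1+HG, 5.97 and 5.46 FPKM in HG, and 7.95 and 7.22 FPKM in Ctrl. It was not called by edgeR (0.35 ± 0.12, 95% interval 0.06 to 0.65, for siFGFR1+HG against HG, adjusted p = 0.0741, and -0.43 ± 0.12 in HG against Ctrl, adjusted p = 0.0679). DESeq2 called both (adjusted p = 0.0344 and 0.0145), and limma the first, on log2(FPKM + 1) and on log2(FPKM + 0.1) (adjusted p = 0.0458 and 0.0437). The FPKM of Spred2 over that of Spred1 was accordingly 1.12 and 1.04 in siFGFR1+HG, 1.72 and 1.61 in HG, and 1.49 and 1.61 in Ctrl. Spred3, the least abundant of the 3, had 2.99 and 2.17 FPKM in siFGFR1+HG, 2.67 and 2.81 in HG, and 2.28 and 2.19 in Ctrl, and was not called (-0.07 ± 0.19 for siFGFR1+HG against HG).

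Il17rd was under the level filter in every library. It had 108 and 62 counts in siFGFR1+HG (0.599 and 0.389 FPKM), 39 and 20 in HG (0.197 and 0.109 FPKM), and 72 and 54 in Ctrl (0.391 and 0.212 FPKM). Both siFGFR1+HG libraries lay above both HG libraries, a direction opposite to Dusp6. In a fit without the filter, in which 19.2% of 18809 genes were called, 8.74% higher and 10.5% lower, Il17rd stood 3.18-fold above its HG level in siFGFR1+HG (log2 1.67 ± 0.47, adjusted p = 0.0331, edgeR). That call was lost in 6 of 12 alternatives: both limma fits (adjusted p = 0.0923 and 0.113) and without siFGFR1+HG 1 (0.201), siFGFR1+HG 2 (0.0608), HG 2 (0.162) or Ctrl 1 (0.0536). In the same fit Il17rd was not called in HG against Ctrl (-0.96 ± 0.46), where 8.87% of genes were called, 3.69% higher and 5.18% lower. It was not called in siFGFR1+HG against Ctrl either (0.71 ± 0.45), where 13.8% were called, 5.78% higher and 8.05% lower. Dusp4 was called in none of the 3 comparisons of that fit (0.69 ± 0.81 for siFGFR1+HG against HG).

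Summed over the 10 genes, the FPKM came to 52.6 and 50.1 in siFGFR1+HG, 61.5 and 58.4 in HG, and 65.5 and 62.7 in Ctrl. Without Dusp6 the sums were 42.6 and 40.7 in siFGFR1+HG, 46.2 and 43.9 in HG, and 46.7 and 44.9 in Ctrl, where HG and Ctrl overlapped. Dusp6 held 19.0% and 18.8% of the sum in siFGFR1+HG, 24.8% in both HG libraries, and 28.7% and 28.4% in Ctrl. The Sprouty sum was 20.4 and 19.0 FPKM in siFGFR1+HG, 23.0 and 22.2 in HG, and 20.3 and 19.7 in Ctrl, and was thus highest in HG. The SPRED sum was 17.8 and 17.4 FPKM in siFGFR1+HG, 18.9 and 17.1 in HG, and 22.1 and 21.0 in Ctrl, with overlap between siFGFR1+HG and HG.

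**Figure D3:**
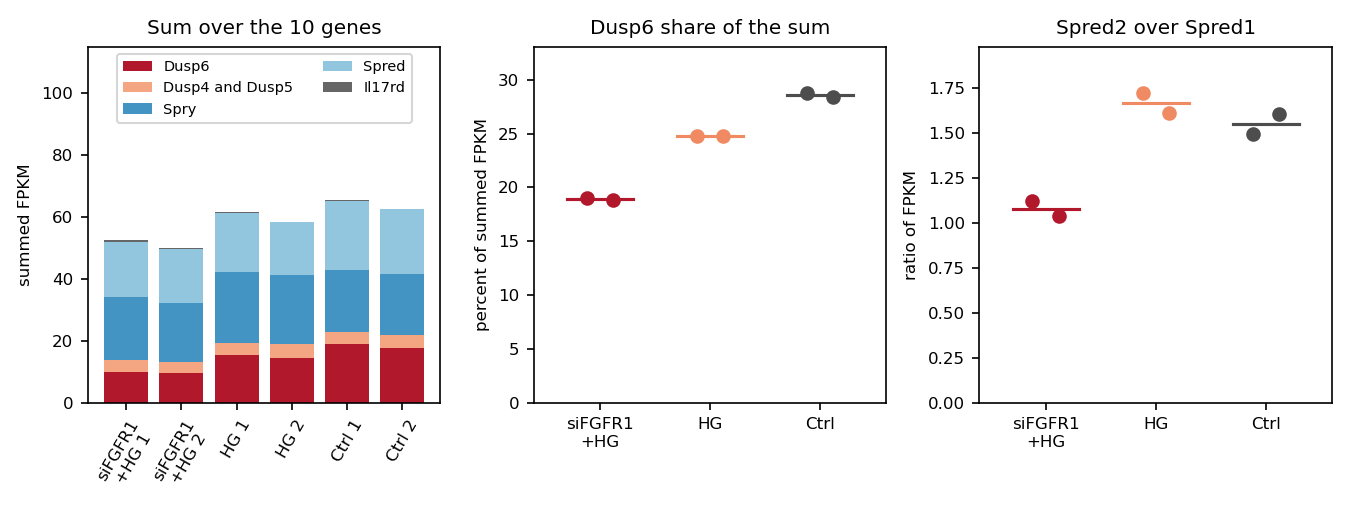
Left, FPKM of the 10 genes stacked by family in each library (Il17rd is a thin cap); middle, the percent of that sum held by Dusp6; right, the ratio of Spred2 to Spred1, each by group with 2 libraries and their mean. The share of Dusp6 was 18.8% to 19.0% in siFGFR1+HG, 24.8% in HG and 28.4% to 28.7% in Ctrl, and the Spred2 to Spred1 ratio was lowest in siFGFR1+HG.

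Further genes of the pathway, from 4 lists, also moved in both directions. Their counts stand beside the shares of all genes given above: 14.1% higher and 15.9% lower for siFGFR1+HG against HG, 5.81% and 7.85% in HG against Ctrl, and 9.82% and 12.4% in siFGFR1+HG against Ctrl. Of 7 other MAP kinase phosphatases 5 were tested, and for siFGFR1+HG against HG 2 rose, 1 fell and 2 were not called (median log2 -0.06). Dusp7, a close relative of Dusp6 that also acts on ERK in the cytoplasm, fell (-0.43 ± 0.05), with 15.4 and 16.02 FPKM in siFGFR1+HG, against 21.0 and 21.8 FPKM in HG. Dusp1, a nuclear phosphatase induced by stress, rose (0.29 ± 0.05), with 55.0 and 52.4 FPKM in siFGFR1+HG, against 44.5 and 44.4 FPKM in HG. Dusp8 rose too (0.70 ± 0.20), but lost its call without any single library except HG 1 (adjusted p = 0.0631 to 0.161, edgeR). In HG against Ctrl Dusp1 rose (0.67 ± 0.05), 0 fell and 4 were not called (median 0.12), and in siFGFR1+HG against Ctrl 1 rose, 1 fell and 3 were not called (median -0.02). Dusp1 was thus 1.94-fold higher in siFGFR1+HG than in Ctrl, where Dusp6 was 1.89-fold lower.

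Of 23 genes that ERK signalling is known to induce, 17 were tested, and for siFGFR1+HG against HG 8 fell, 4 rose and 5 were not called (median log2 -0.18), where 29.9% of all genes were called. Etv4, an ETS transcription factor, had 11.8 and 10.8 FPKM in siFGFR1+HG, against 21.7 and 22.1 FPKM in HG (log2 -0.94 ± 0.06). Ccnd1, the cyclin of G1 phase, fell (-0.42 ± 0.03), as did Ier3, an early response gene also induced by NF-kB (-0.87 ± 0.08). Egr1, an immediate-early transcription factor, rose, with 39.2 and 38.8 FPKM in siFGFR1+HG, against 16.5 and 17.0 FPKM in HG (1.23 ± 0.04), and so did Hbegf, a ligand of the EGF receptor (0.58 ± 0.05). In HG against Ctrl 2 rose, namely Ier3 (0.94 ± 0.08) and Junb (0.52 ± 0.06), 1 fell, namely Egr1 (-0.87 ± 0.04), and 14 were not called (median -0.06). In siFGFR1+HG against Ctrl 4 rose, 5 fell, with the smallest p for Ccnd1 (-0.51 ± 0.03), and 8 were not called (median -0.15).

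All 14 listed inhibitors of receptor and Ras signalling outside the members were tested. For siFGFR1+HG against HG 6 rose, 3 fell and 5 were not called (median log2 0.17). Errfi1, an ERK-inducible inhibitor of the EGF receptor, fell (-0.98 ± 0.06), with 13.9 and 12.3 FPKM in siFGFR1+HG, against 26.2 and 25.9 FPKM in HG. Nf1, which encodes the Ras inhibitor neurofibromin that SPRED proteins recruit, rose (0.47 ± 0.06), with 6.45 and 6.93 FPKM in siFGFR1+HG, against 4.91 and 4.85 FPKM in HG. Cblb, a ubiquitin ligase (0.52 ± 0.05), and Rasal2, a Ras inhibitor (0.55 ± 0.06), rose, and Rasa3, another Ras inhibitor, fell (-0.44 ± 0.04). In HG against Ctrl 0 rose, 6 fell and 8 were not called (median -0.22), and those that fell included Nf1 (-0.44 ± 0.06), Rasal2 (-0.65 ± 0.06) and Rasa1 (-0.31 ± 0.04). Lrig1 and Cbl fell as well, with calls that leaving out single libraries ended (Lrig1 without HG 2, Ctrl 1 or Ctrl 2, adjusted p = 0.0652 to 0.0756, and Cbl without any library but Ctrl 2, adjusted p = 0.0542 to 0.155, edgeR). In siFGFR1+HG against Ctrl 1 rose, 5 fell, with the smallest p for Errfi1 (-1.01 ± 0.06), and 8 were not called (median -0.04). By mean FPKM, Nf1 was lowest in HG, as were Spred1, which edgeR did not call, and Rasal2, Lrig1 and Cbl of this list. Spred2, Errfi1, Rasa1 and Rasa3 were instead lowest in siFGFR1+HG. A link between Nf1 and Spred1 was not tested.

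Of 22 genes of the ERK cascade itself 21 were tested. For siFGFR1+HG against HG 7 rose, 3 fell and 11 were not called (median log2 0.13), with the smallest p for Frs2, the adaptor of FGF receptors (0.43 ± 0.05), and the largest change for Sos2 (0.98 ± 0.24). Mapk3, which encodes one of the ERK kinases, Sos2 and Gab1 rose as well, but leaving out single libraries ended each call (Mapk3 without siFGFR1+HG 1, HG 1 or HG 2, Sos2 without either library of siFGFR1+HG or HG, Gab1 without siFGFR1+HG 1, HG 1, HG 2 or Ctrl 1, adjusted p = 0.0551 to 0.113, edgeR). In HG against Ctrl 0 rose, 3 fell (Ksr1 and Nras, lost without any single library, and Frs2, lost without any but HG 2, adjusted p = 0.0547 to 0.197, edgeR) and 18 were not called (median -0.04). In siFGFR1+HG against Ctrl 3 rose, with the smallest p for Mapk3 (0.35 ± 0.05), 0 fell and 18 were not called (median 0.04).

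**Figure D4:**
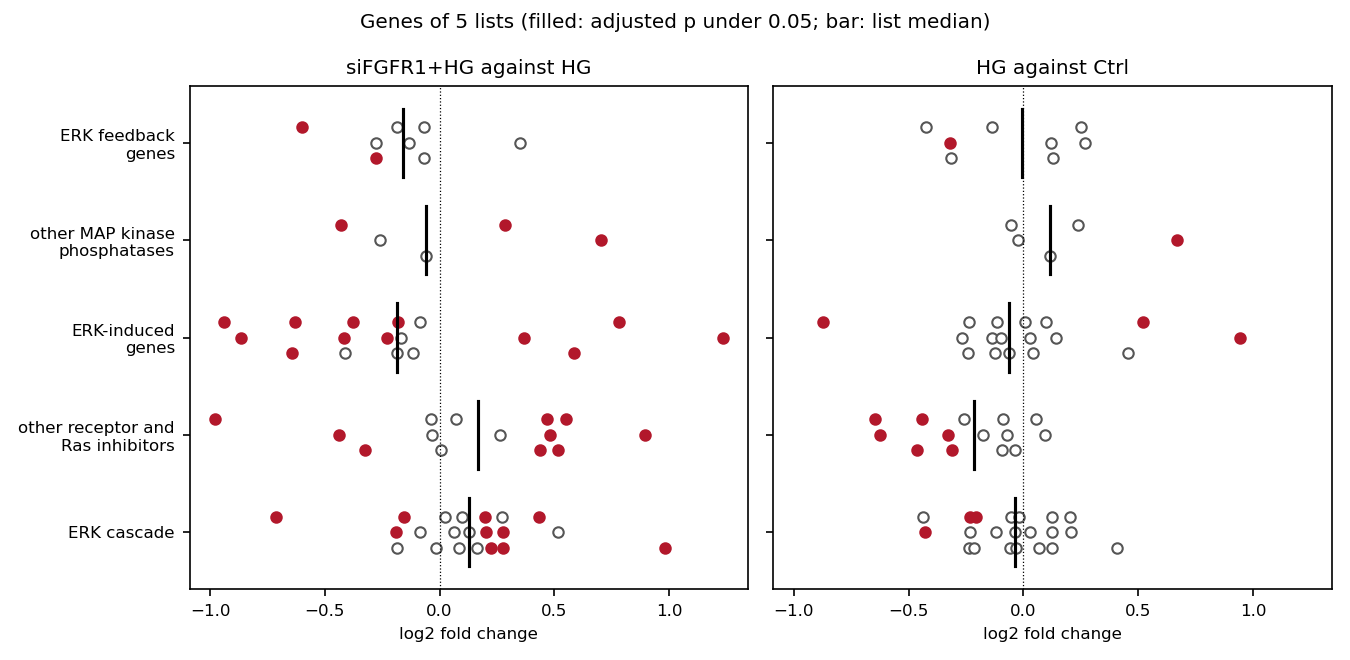
Log2 fold change (x axis) of the tested genes of 5 lists (rows) in 2 comparisons, each point a gene, filled where its adjusted p was under 0.05, with the list median as a bar. For siFGFR1+HG against HG, the ERK feedback genes (8 tested) ran from -0.60 to 0.35 and the ERK-induced genes (17 tested) from -0.94 to 1.23. The ERK cascade (21 tested) ran from -0.71 to 0.98 and the other receptor and Ras inhibitors (14 tested) from -0.98 to 0.90. The lists differ in size, which bears on these ranges.

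By the Pearson correlation of log2(FPKM + 1) over the 6 libraries, the genes most like Dusp6 among 7951 searched were Dok7, Kcnip3, Topbp1, Hnrnpul1 and Tmpo (r = 0.998, 0.998, 0.998, 0.997 and 0.996). Those searched had a mean of at least 5 FPKM, a symbol borne by 1 row and no clone or provisional name. Dok7, an adaptor of the muscle acetylcholine receptor synapse, had 4.41 and 3.93 FPKM in siFGFR1+HG, 6.79 and 6.33 in HG, and 8.47 and 8.16 in Ctrl. Of the genes searched, 359 had an r over 0.95 with Dusp6. With 3 groups of 2 libraries, r mainly follows the differences between groups and cannot show covariation within a group. None of the 5 belongs to the lists above.

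The deposited annotation linked 5 of the 10 members to the 7 pathway terms looked up. The KEGG term for MAPK signalling was on Dusp4, Dusp5 and Dusp6, 3 of the 296 rows that carried it, and the gene ontology term for negative regulation of the ERK cascade was on Dusp4, Dusp6 and Spry4, 3 of 17 rows. The term for inactivation of MAPK activity was on Dusp4, Dusp5, Dusp6 and Spred3, 4 of 14 rows. Spry4 also carried terms for FGF receptor signalling. A search of the table by the second term would therefore have found Dusp6 and Spry4 but not Spred2, among the 3 members called in any comparison.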

How the data were processed

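RNA from 6 H9C2 libraries (3 groups of 2) was measured as counts and FPKM per gene. Per the submitters' processing notes, fastp, HISAT2 and StringTie were used, with no versions and with the human build GRCh38 named, while all 32623 identifiers are rat Ensembl identifiers. The build of the deposited coordinates is therefore unsure. The authors' deposited counts were not scaled between libraries. The deposited FPKM were scaled by the authors to gene length and library size, with 0.0001 written for a count of 0 and read here as 0. Counts of 4 occurred in 2831 gene and library pairs, against 1214 for 3 and 734 for 5, so how many counts a fragment gave is unknown, which bears on Dusp4, Il17rd and the limit given for Fgfr1.

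The 12229 genes that reached 1 FPKM in 2 or more libraries entered edgeR 4.0.16 (R 4.3.3), with TMM factors of 0.994 to 1.01, a mean for each group and 3 residual degrees of freedom. Quasi-likelihood p-values were Benjamini-Hochberg adjusted over all genes tested. Standard errors were worked back from the F statistic, and the median was 0.0872 for siFGFR1+HG against HG. Alternatives were RLE factors, DESeq2 1.42.0, no level filter (18809 genes), only the 2 groups compared, limma 3.58.1 on log2(FPKM + 1) or log2(FPKM + 0.1), a replicate block and leaving out each library.

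The members, lists and tests were chosen with earlier results of these data known. All members are named, with up to 5 genes of smallest p in each other list, Fgfr1, and the 5 genes most like Dusp6. A gene that this rule names in the ERK cascade list is not reported here. Coordinates of promoters are those of RefSeq (GRCr8), and motifs were chosen after seeing the members' values.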

Additional observations from a re-analysis of the deposited data

How the results depend on the processing

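Of 312 refits of the 8 tested members' fold changes, 292 kept their direction and side of the threshold, 10 lost and 5 gained a call, and 5 turned direction, none of them called. Without single libraries, Spry1 ranged over log2 -0.23 to 0.071 for siFGFR1+HG against HG (above 0 without siFGFR1+HG 2 or HG 2) and over -0.29 to 0.032 for HG against Ctrl (above 0 without Ctrl 1). Spred3 ranged over -0.31 to 0.13 for siFGFR1+HG against HG (0.13 without siFGFR1+HG 2) and over -0.045 to 0.40 for siFGFR1+HG against Ctrl (below 0 without siFGFR1+HG 1). Dusp4, refitted without a filter as an alternative chosen after seeing the data, turned in 4 refits, ranging over -0.29 to 1.26 for siFGFR1+HG against HG, -0.88 to 0.45 for HG against Ctrl and -0.64 to 1.14 for siFGFR1+HG against Ctrl, and the cause was not tested. Of 442 refits of other list genes 383 kept their call and 59 lost it, with 0 reversals. These genes were picked by smallest p and were all called in the main fit, so they could lose a call but not gain one. Their refits are therefore not comparable with those of the members. These losses were not confined to leaving out libraries. Over all 13 alternatives, calls in HG against Ctrl were lost in 11 for Nras, 10 for Ksr1, 8 for Frs2 and 8 for Cbl. Those for siFGFR1+HG against HG were lost in 6 for Gab1 and 6 for Dusp8.

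Leaving out single libraries gave 1 to 2 members called for siFGFR1+HG against HG, 0 to 1 for HG against Ctrl and 1 to 2 for siFGFR1+HG against Ctrl. In HG against Ctrl the 0 came without HG 1, HG 2, Ctrl 1 or Ctrl 2, leaving fewer samples. Over all genes these fits called 2293 to 3247, 456 to 1302 and 1379 to 2586 genes, against 3661, 1670 and 2723. DESeq2 called 3 members (Dusp6, Spred1 and Spred2) and 2616 genes in HG against Ctrl, and the cause was not tested. With a replicate block 2, 1 and 2 members and 3253, 1153 and 2323 genes were called, and no member's call changed. Libraries with the same number did not deviate together over the genes tested (correlations -0.0896 to 0.0595). With 2 libraries per group this cannot tell whether they share a preparation or culture, and the labels do not say. Depth limits Dusp4 and Il17rd, at 12 to 108 counts per library.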
